A study of Gossypium barbadense and Gossypium hirsutum with 72 samples.

Results

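This section describes the genes whose transcripts were abundant and nearly level in the cotton shoot apex in every group of plants sampled. A gene was included when its mean over the 3 libraries of a group was at least 30 RPKM (reads scaled to the coding length of the gene and to the mapped reads of the library) in each of the 12 groups, and its highest group mean was at most 1.4 times its lowest. Of 64274 genes listed in at least 1 library, 3110 reached 30 RPKM in every group, and 153 of these also met the limit on the ratio. The 153 genes made up 0.238% of the genes listed and 4.92% of those at 30 RPKM. The genes were chosen by these measured levels and ratios, so both are given as a description and were not tested.

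The study compared shoot apexes of nulliplex-branch cotton, in which flowers form directly in the leaf axils, with apexes of normal-branch cotton, which bears fruiting branches. The 4 lines were Xinhai16 (G. barbadense, nulliplex, Gbnp), Hai1 (G. barbadense, normal branch, GbWT), 3798 (G. hirsutum, nulliplex, Ghnp) and Huazhong 94-3130 (G. hirsutum, normal branch, GhWT). Seedlings (stage 1) had 2 leaves in all 4 lines. At pre-squaring (stage 2) the labels give 6 leaves for Gb2np, 8 for Gb2WT, 5 for Gh2np and 6 for Gh2WT, and at squaring (stage 3) 9 for Gb3np, 11 for Gb3WT, 12 for Gh3np and 8 for Gh3WT. The methods of the study give partly other leaf numbers for both later stages. Plants were grown in the field at 1 place, and each branch type in a species is 1 self-fertilised line, so branch type, line and, after the seedling stage, leaf number cannot be told apart. Each group had 3 libraries, which the study calls biological replicates.

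Genes for basic cell functions, such as protein synthesis, the cytoskeleton and energy supply, are often transcribed at a similar level in many tissues and are called housekeeping genes. Members of such families, actin and ubiquitin genes among them, serve as internal controls in quantitative PCR. An RPKM is a share of the reads of a library and not an amount of RNA per cell, so a level RPKM says that a transcript held its share. Fewer cells of a type and less RNA per cell cannot be told apart in such bulk samples. Both cottons are allotetraploids that carry related gene copies from 2 ancestral genomes. The genes appear here under the identifiers of the G. hirsutum gene models, and the sources used here pair none of the stable genes with a name or function, so no role is given for any of them.

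The libraries held 23.9 M to 28.1 M counted reads (median 25.2 M, in units of 1000000 reads) and 51699 to 54925 listed genes each. PCNA2 (CotAD_04662), a DNA replication factor of dividing cells, averaged 16.1 to 69.9 RPKM over the 12 groups. It was the highest of 5 division genes looked at. The others had group means of 2.57 to 9.455 RPKM (ORC6), 2.42 to 14.96 RPKM (ATXR6), 0.0567 to 11.6 RPKM (CYCD1;1) and 0.204 to 7.28 RPKM (POK2). The meristem and organ regulators SVP, HB-8 and BRC1 had 0.388 to 42.4 RPKM, 0.463 to 4.37 RPKM and 0 to 3.565 RPKM. SEP3 (CotAD_35367), a floral organ identity gene, had group means of 0.468 to 12.5 RPKM at the later stages and was listed in no seedling library. CA1 (CotAD_07955), a carbonic anhydrase abundant in green leaf, averaged 14.1 to 59.1 RPKM in the later groups, against 741 to 1080 RPKM in the seedling groups. The 10 most abundant genes took 3.76 to 6.34% of the reads in seedling libraries, 1.37 to 1.99% at pre-squaring and 1.42 to 2.38% at squaring. CA1 was 1 of 3 leaf genes looked at. The other 2, CotAD_07016 and CotAD_58304, had 2.73 to 33.3 RPKM and 3.80 to 12.2 RPKM in the later groups, against 3.55 to 9.14 RPKM and 2.75 to 3.996 RPKM in the seedling groups, and the 3 together summed to 29.9 to 88.3 RPKM later and 751 to 1088 RPKM in seedlings. The phloem gene looked at, SUC2 (CotAD_31169), had 1.31 to 15.6 RPKM in the later groups, against 1.03 to 1.98 RPKM in the seedling groups. Of 13 marker genes in all, 1, SEP3, was at 0 in every seedling group.

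The 153 genes had mean levels of 33.5 to 336 RPKM, with a median of 51.4 RPKM, against a median of 82.9 RPKM in the 2957 other genes at 30 RPKM. Most lay near the lower limit: 71 averaged under 50 RPKM, 62 from 50 to 100 RPKM and 20 at or above 100 RPKM, 6 of which reached 200 RPKM. Genes averaging little above 30 RPKM could not have a high ratio, because their lowest group mean also had to reach 30 RPKM, so the rule itself fixes part of the fall in the following shares. The stable genes were 14.6% of the 485 genes averaging 30 to 50 RPKM, 4.34% of the 1430 genes from 50 to 100 RPKM, 1.86% of the 752 genes from 100 to 200 RPKM and 1.35% of the 443 genes above that. All of these were counted among the 3110 genes at 30 RPKM in every group. No gene averaging more than 336 RPKM met the rule, although 209 of the 3110 genes had such means.

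**Figure D1:**
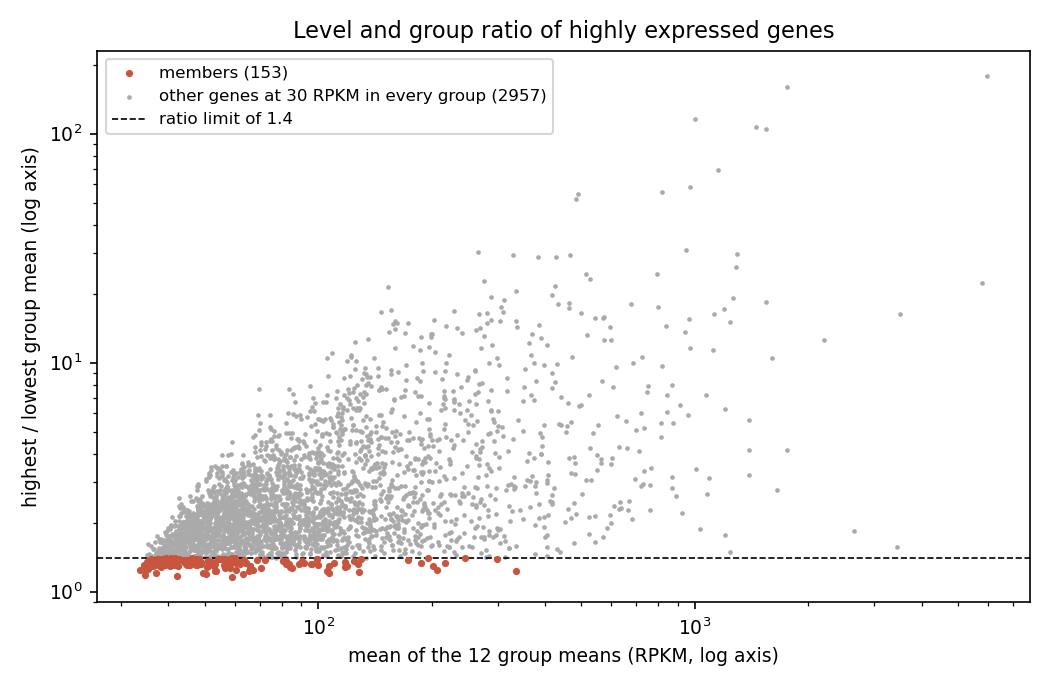
Mean of the 12 group means (RPKM, log axis) against the ratio of the highest to the lowest group mean (log axis) for the 3110 genes at 30 RPKM in every group, each point a gene. The 153 stable genes lie under the dashed limit of 1.4 and reach 336 RPKM, while the other 2957 genes have ratios up to 178.8.

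The ratio of the highest to the lowest group mean was 1.154 to 1.399 among the stable genes, with a median of 1.331, and the median of the other genes at 30 RPKM was 2.232. The distribution leaned toward the limit. Only 5 genes had a ratio of at most 1.2 and 110 exceeded 1.3. The 3 genes just inside the limit were CotAD_38654 (1.398), CotAD_44871 (1.398) and CotAD_34265 (1.399), and those just outside it were CotAD_54794 (1.403), CotAD_10237 (1.404) and CotAD_51670 (1.404). At the level limit, the lowest group means just inside were 30.3 RPKM for CotAD_52364, 30.4 RPKM for CotAD_54548 and 30.5 RPKM for CotAD_61272. Those just outside were 29.7 RPKM for CotAD_04317, 29.7 RPKM for CotAD_72454 and 29.8 RPKM for CotAD_18092, whose ratios of 1.248, 1.287 and 1.381 were within the ratio limit.

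Single libraries varied more than the group means. Between the highest and the lowest of the 36 libraries the stable genes differed by a factor of 1.281 to 1.995, with a median of 1.591, against a median of 2.947 in the other genes at 30 RPKM. None of the 153 exceeded a factor of 2, and 37 stayed at or below 1.5. In 134 of them every one of the 36 libraries was at or above 30 RPKM.

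The gene with the lowest ratio, CotAD_16053 (coding length 1722 bases), averaged 59.1 RPKM. In seedlings it had 59.0, 63.1 and 57.8 RPKM in Gb1np, 57.1, 53.5 and 56.0 RPKM in Gb1WT, 56.8, 53.5 and 56.5 RPKM in Gh1np and 69.0, 54.1 and 65.2 RPKM in Gh1WT. At pre-squaring it had 58.5, 59.97 and 59.5 RPKM in Gb2np, 56.3, 56.7 and 56.1 RPKM in Gb2WT, 64.3, 59.9 and 57.8 RPKM in Gh2np and 62.4, 60.5 and 60.1 RPKM in Gh2WT. At squaring it had 63.0, 66.0 and 63.2 RPKM in Gb3np, 57.7, 58.2 and 53.6 RPKM in Gb3WT, 59.98, 55.5 and 60.02 RPKM in Gh3np and 60.4, 57.9 and 58.3 RPKM in Gh3WT. The Gb nulliplex libraries were above the Gb normal-branch libraries at all 3 stages without overlap, while the Gh lines overlapped at every stage, and the Gh1WT library with 69.0 RPKM was the highest of the 36. On RPKM divided by the TMM factor (edgeR's trimmed mean of M values, which sets the bulk of genes level between libraries), the Gb lines overlapped in seedlings and at pre-squaring and stayed apart at squaring alone. The next in order were CotAD_67834 (ratio 1.164, 36.9 to 47.3 RPKM over the libraries), CotAD_74347 (1.182, 30.2 to 40.1 RPKM), CotAD_18308 (1.189, 37.6 to 62.9 RPKM) and CotAD_00335 (1.198, 53.0 to 73.4 RPKM). CotAD_18308 joined a low group ratio to a wide range of single libraries. Its coding sequence has 384 bases, and its libraries held 405 to 617 reads.

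Among the most abundant stable genes, CotAD_62064 (612 bases) had a lowest library of 268 RPKM, a median of 338 RPKM and a highest library of 393 RPKM. CotAD_15339 (585 bases) had 221, 294 and 422 RPKM as its lowest, median and highest libraries, CotAD_38654 (1173 bases) 194, 239 and 319 RPKM, and CotAD_49842 (1236 bases) 188, 214 and 274 RPKM. The ranges of these 4 genes overlapped in part, and CotAD_15339 had the widest, by a factor of 1.911. CotAD_51044 (459 bases) was the fifth in level, with a mean of 207 RPKM, and the steadiest of the 5 over single libraries, by a factor of 1.289.

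In seedlings CotAD_51044 had 229.6, 212 and 222 RPKM in Gb1np, 201, 232 and 189 RPKM in Gb1WT, 187, 188 and 184 RPKM in Gh1np and 192, 209 and 235 RPKM in Gh1WT. At pre-squaring it had 211, 219 and 221 RPKM in Gb2np, 188, 198 and 193 RPKM in Gb2WT, 233, 238 and 225 RPKM in Gh2np and 233, 228 and 217 RPKM in Gh2WT. At squaring it had 185, 196 and 199 RPKM in Gb3np, 197, 198 and 187 RPKM in Gb3WT, 186, 205 and 195 RPKM in Gh3np and 191, 221 and 206 RPKM in Gh3WT. Its nulliplex libraries were above the normal-branch libraries without overlap in Gb at pre-squaring and below them without overlap in Gh seedlings, and the other 4 pairs overlapped. On RPKM divided by the TMM factor, the Gh seedling libraries overlapped. On that scale the Gh nulliplex libraries lay below the normal-branch libraries without overlap at squaring.

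**Figure D2:**
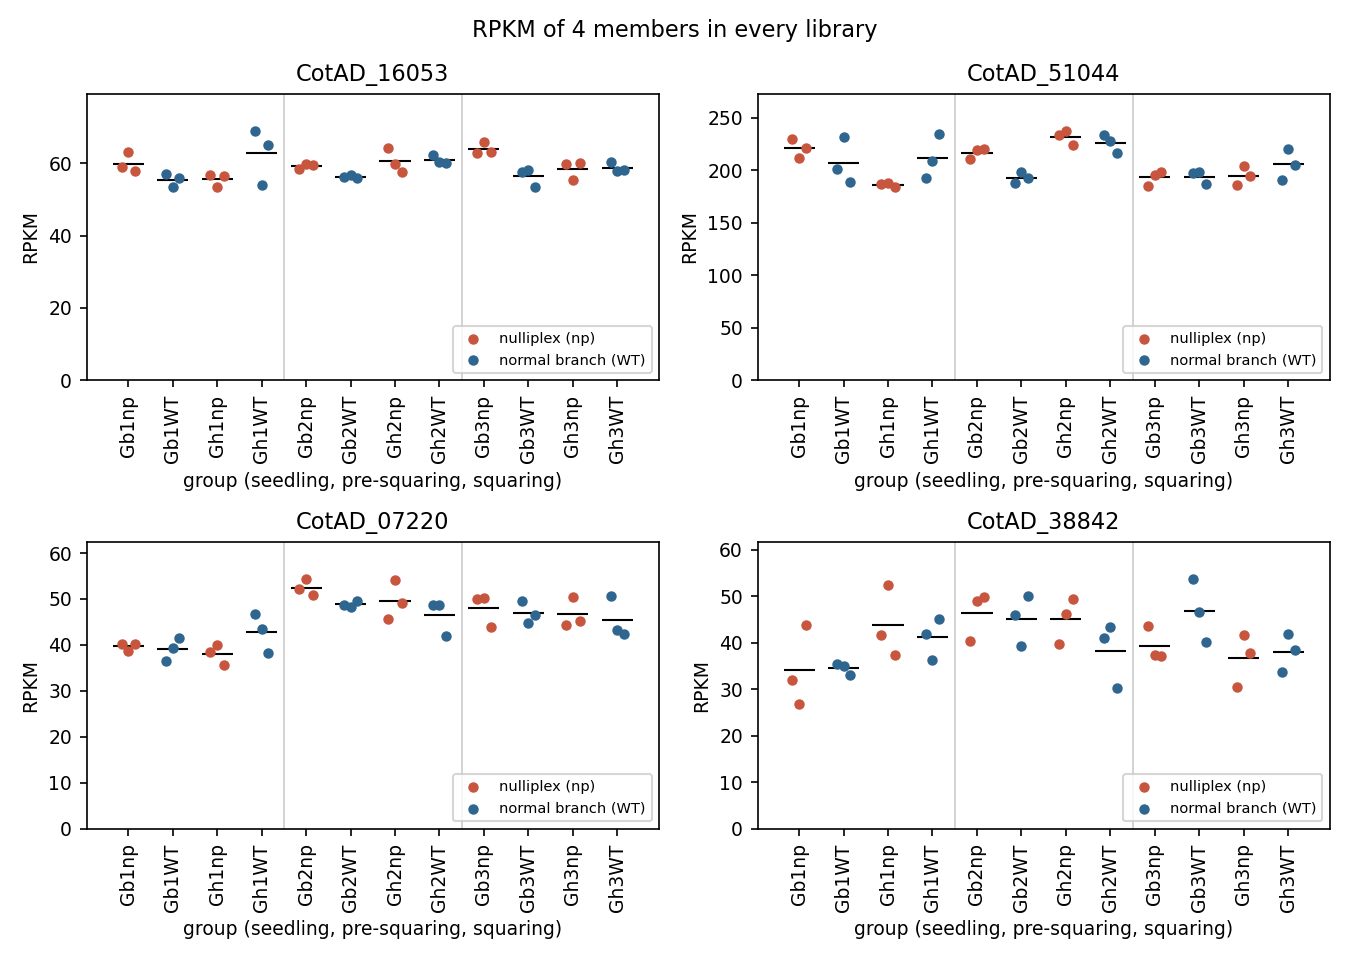
RPKM (axis from 0) of CotAD_16053, CotAD_51044, CotAD_07220 and CotAD_38842 in each of the 36 libraries, with groups along the x axis by stage, nulliplex left of normal branch, points for libraries and black lines for group means. CotAD_16053 stays between 53.5 and 69.0 RPKM and CotAD_51044 between 184 and 238 RPKM, CotAD_07220 is lowest in seedlings, and CotAD_38842 scatters most within groups.

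Replicate libraries of the stable genes lay close together. The coefficient of variation (CV) over the 3 libraries of a group, averaged over the 12 groups, was 3.70 to 13.4%, with a median of 7.04%, against a median of 11.1% in the other genes at 30 RPKM and 10.7% in the 2436 of them that averaged 35.3 to 179 RPKM, a range cut to the levels of the stable genes without their extremes. The spread and the group means come from the same libraries, and a scattered gene has scattered group means, so this difference is not independent of the choice. Read counting alone gives a CV with a median of 2.57% at the counts of the stable genes, and the measured CV was a median of 2.66 times the counting CV, against 4.50 times in the other genes. Replicates therefore differed by more than counting error in both sets.

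The spread also differed between groups. The median CV of the stable genes was 5.85% in Gb1np, 6.74% in Gb1WT, 10.3% in Gh1np and 8.40% in Gh1WT, then 4.30% in Gb2np, 4.58% in Gb2WT, 4.82% in Gh2np and 6.30% in Gh2WT, and 4.36% in Gb3np, 7.78% in Gb3WT, 6.03% in Gh3np and 8.91% in Gh3WT. In the other genes at 30 RPKM it was 19.1% in Gh1np, the highest, and 5.77% in Gb2np, the lowest. The stable genes were thus also most scattered in Gh1np and least scattered in Gb2np, and lay below the other genes in all 12 groups.

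**Figure D3:**
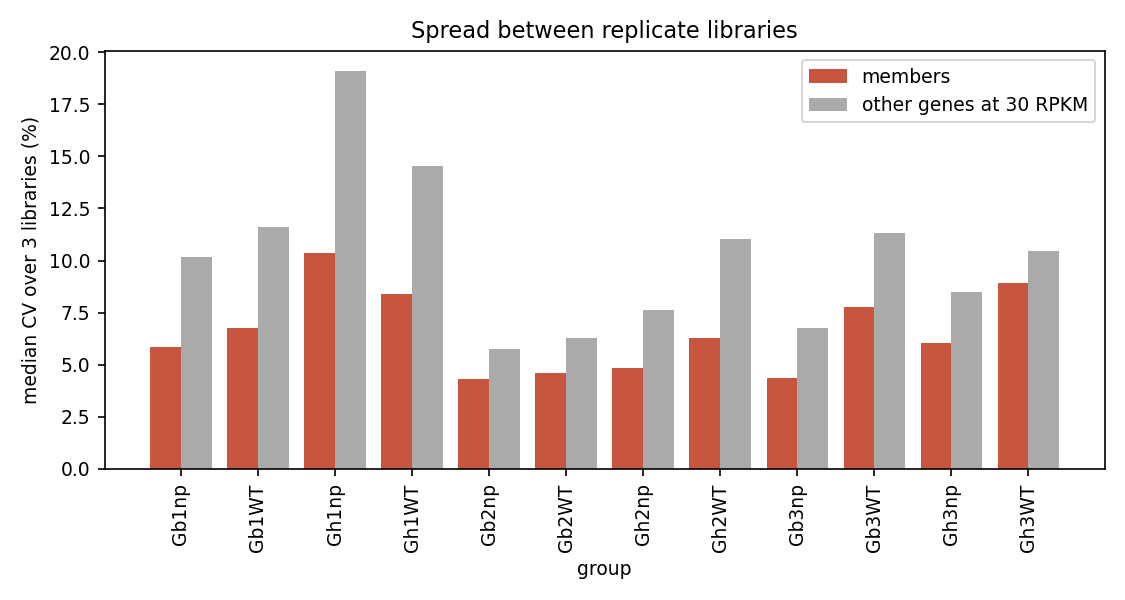
Median CV over the 3 libraries of each group (percent, bars from 0) for the 153 stable genes and the 2957 other genes at 30 RPKM, with groups by stage and nulliplex left of normal branch. The stable genes are lower in every group, with 10.3% against 19.1% in Gh1np and 4.30% against 5.77% in Gb2np.

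The genes with the least replicate spread were CotAD_01170 (mean CV 3.70%), CotAD_16053 (3.90%) and CotAD_05579 (3.94%), and those with the most were CotAD_38842 (13.4%), CotAD_40253 (12.8%) and CotAD_01544 (12.3%). The scattered genes were short, with 243, 456 and 423 coding bases, against 942, 1722 and 1992 bases in the steady ones. At their counts, read counting alone gives CVs of 6.33, 3.84 and 4.7% in CotAD_38842, CotAD_40253 and CotAD_01544, below the measured ones. In seedlings CotAD_38842 had 32.0, 26.9 and 43.8 RPKM in Gb1np, 35.5, 35.1 and 33.0 RPKM in Gb1WT, 41.6, 52.5 and 37.3 RPKM in Gh1np and 42.0, 36.3 and 45.2 RPKM in Gh1WT. At pre-squaring it had 40.3, 49.0 and 49.8 RPKM in Gb2np, 46.1, 39.2 and 50.2 RPKM in Gb2WT, 39.7, 46.1 and 49.4 RPKM in Gh2np and 41.0, 43.5 and 30.3 RPKM in Gh2WT. At squaring it had 43.7, 37.4 and 37.1 RPKM in Gb3np, 53.6, 46.7 and 40.2 RPKM in Gb3WT, 30.5, 41.7 and 37.7 RPKM in Gh3np and 33.8, 41.8 and 38.5 RPKM in Gh3WT. Nulliplex and normal-branch libraries overlapped in all 6 pairs, and these values rest on 163 to 332 reads a library.

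Coding length and coverage were not part of the rule, beyond the division by length in RPKM. The stable genes had coding lengths of 156 bases (CotAD_02810) to 3996 bases (CotAD_69294), with a median of 1101 bases, against 768 bases in the other genes at 30 RPKM and 816 bases in those of like level. Under 500 bases were 19 of the 153 (12.4%), against 838 of the 2957 others (28.3%). The median CV was 9.17% in those 19 and 6.95% in the longer stable genes. Reads covered a median of 99.6% of the coding sequence in both sets (99.62% in stable genes, 99.55% in the others). The lowest mean among the stable genes was that of CotAD_18349, 69.0%, with at least 68.55% in every library. The lowest single library was 68.03%, in CotAD_45472.

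The ratio was also read in a replicate that took no part in the choice. When the rule was applied to replicates 2 and 3 alone, 157 genes met it, and in the 12 libraries of replicate 1 the ratio of the highest to the lowest library had a median of 1.489 (quartiles 1.360 and 1.622), against 2.476 in the other genes at 30 RPKM. With replicate 2 left out, 110 genes met the rule, and the medians in the libraries left out were 1.434 and 2.338. With replicate 3 left out, 133 genes met it, and the medians were 1.469 and 2.549. The ratio in the libraries left out was at most 1.4 for 49 of 157 (31.2%), 45 of 110 (40.9%) and 41 of 133 (30.8%) genes chosen, against 0.447, 1.94 and 0.673% of the others. It was at most 2 for 98.7, 99.1 and 98.5% of the genes chosen, against 27.2, 34.7 and 28.5% of the others. A ratio over 12 single libraries holds more replicate spread than one over 12 means of libraries, and the 2 sets were read on the same libraries. The other genes were those that failed the ratio limit in the replicates used for choosing. Part of the gap between the sets was thus built in, and only the replicate spread of the library left out was new.

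On RPKM the highest and lowest group means of the stable genes were spread over many groups. The highest mean fell most often in Gh3WT (30 genes), Gb1np (29) and Gb3WT (17), and the lowest in Gh1np (24), Gb1WT (19) and Gh3np (16). Relative to each gene's own mean, the median stable gene was at 0.956 in Gh1np, the lowest group, and at 1.048 in Gh3WT, the highest. Together the 153 genes took 1.10 to 1.22% of the reads in each group. Over genes, differences between replicates made up a median of 37.5% of the variation of log2(RPKM + 1), stage 14.5%, species 4.76%, branch type 1.56% and their combinations 29.1%. The limit on the ratio of group means holds down the parts of stage, species and branch type, so these shares restate the choice. The pair with the most similar group means, picked after its values were seen, was CotAD_11389 and CotAD_19741 (Pearson r = 0.92 over 12 group means, log2 scale, levels 117 and 119 RPKM), with lengths of 1083 and 1044 bases.

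In comparisons of 3 against 3 libraries on counts scaled by TMM, no stable gene passed the threshold of the study, which asks for a log2 fold change beyond 1 in size together with an adjusted p below 0.001. The count was 0 of 153 in all 16 comparisons in edgeR's quasi-likelihood test, and also 0 with DESeq2 and with limma. These contrasts are among those that chose the genes, so nothing is read from the counts. For nulliplex against normal branch, the share of all genes tested that passed was 0.429% in Gb1, 9.88% in Gb2, 1.1% in Gb3, 0% in Gh1, 0.24% in Gh2 and 1.78% in Gh3. Stable genes with an unadjusted p under 0.05 numbered 3 in Gb1 (13.3% of all genes tested), 46 in Gb2 (48.1%), 28 in Gb3 (32.9%), 0 in Gh1 (13.1%), 8 in Gh2 (25.7%) and 42 in Gh3 (40.9%). For squaring against seedling, the share passing was 15.2% in Gbnp, 17.4% in GbWT, 3.54% in Ghnp and 10.2% in GhWT, and the stable genes with an unadjusted p under 0.05 numbered 104 in Gbnp (60.8% of all genes), 56 in GbWT (53.8%), 76 in Ghnp (47.6%) and 16 in GhWT (52.2%). For G. barbadense against G. hirsutum, it was 1.42% in np and 3.56% in WT seedlings, 11% and 11.8% at pre-squaring, and 10.3% and 8.11% at squaring. Unadjusted p under 0.05 was then reached by 8 stable genes in np (29.1% of all genes) and 4 in WT seedlings (32.8%), 36 in np (50.2%) and 29 in WT (51%) at pre-squaring, and 36 in np (51.5%) and 14 in WT (42%) at squaring.

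At an adjusted p under 0.05 and any fold change, edgeR called stable genes in several comparisons. For nulliplex against normal branch these were 0 in Gb1 (2.96% of all genes tested), 29 in Gb2 (40.2%), 7 in Gb3 (16.9%), 0 in Gh1 (0.341%), 0 in Gh2 (5.64%; 3 with DESeq2 and 0 with limma) and 17 in Gh3, all lower (27.7% in either direction and 14.3% lower). In Gb1 and Gh1 DESeq2 and limma also called 0. For G. barbadense against G. hirsutum they were 0 in np seedlings (15.1%; 2 with DESeq2 and 1 with limma) and 0 in WT seedlings (19.6%; 0 with both), 19 in np (42.2%) and 17 in WT (42.9%) at pre-squaring, and 22 in np (43.6%) and 1 in WT (31.5%) at squaring. The fitted fold changes of the stable genes stayed within -0.53 and 0.45 on the log2 scale in these 12 comparisons. In 1 fit of all 36 libraries, which share 1 estimate of the spread, the counts for nulliplex against normal branch were 0 in Gb1, 6 in Gb2, 21 in Gb3, 1 in Gh1, 3 in Gh2 and 42 in Gh3. Between the species they were 11 in np and 13 in WT seedlings, 11 and 23 at pre-squaring, and 18 and 25 at squaring.

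Single libraries moved these counts by more than 1.5 times. For nulliplex against normal branch, the count in Gb2 was 9 and 5 without Gb2np replicates 2 and 3, and 19 and 17 without Gb2WT replicates 1 and 2. In Gb3 it was 0 without any 1 of the 3 Gb3np libraries, and 1, 2 and 13 without Gb3WT replicates 1, 2 and 3. In Gh3 it was 2, 1 and 1 without Gh3np replicates 1, 2 and 3, and 3, 47 and 5 without Gh3WT replicates 1, 2 and 3. The counts in Gb3 and Gh3 thus fell without any 1 nulliplex library and without some of the normal-branch libraries. An omission also leaves fewer libraries to test, and the part of this in the falls was not tested. Between the species at pre-squaring, the count in np was 5 and 6 without Gb2np replicates 2 and 3, and 12, 29 and 11 without Gh2np replicates 1, 2 and 3, and that in WT was 5, 5 and 4 without Gb2WT replicates 1, 2 and 3. At squaring, the count in np was 10, 13 and 12 without Gb3np replicates 1, 2 and 3 and 11 without Gh3np replicate 2, and the 1 call in WT was 6 without Gh3WT replicate 2 and 0 without Gb3WT replicate 2 or 3 or Gh3WT replicate 1 or 3.

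On RPKM, 60 of the 153 stable genes (39.2%) had nulliplex libraries above the normal-branch libraries without overlap in 1 species and stage and below them without overlap in another, against 56.6% of the 3110 genes at 30 RPKM. On TMM-scaled RPKM 54 stable genes did so, 45 of them among the 60. The share of all genes at 30 RPKM was not computed on that scale, so nothing is read from this count.

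Squaring against seedling gave the most calls, and all were lower at squaring: 97 of 153 in Gbnp (55.1% of all genes tested in either direction and 27.6% lower), 38 in GbWT (47.1 and 23.4%), 49 in Ghnp (36.8 and 19.2%) and 9 in GhWT (44.1 and 21.4%). The genes were chosen level on RPKM, and the TMM factors over all 36 libraries had medians of 0.874 in seedlings and 1.065 at squaring. Dividing a level RPKM by such factors makes it lower at squaring. The direction of these calls was thus largely set by the choice and the scaling, and nothing is read from it. The median fitted log2 fold change of the stable genes was -0.33 in Gbnp, -0.22 in GbWT, -0.34 in Ghnp and -0.12 in GhWT, and that of all genes tested was 0.01 to 0.03. With the library total in place of TMM, and the same edgeR test, the counts were 31 in Gbnp, 7 in GbWT, 4 in Ghnp and 7 in GhWT. With limma on log2(RPKM + 1), which changes both the test and the scaling, they were 35, 11, 5 and 13. In 1 fit of all 36 libraries with TMM they were 92, 70, 96 and 49. They also moved when single libraries were left out, which leaves fewer libraries to test. In edgeR, Gbnp had 64 without Gb3np replicate 3. GbWT had 11 and 9 without Gb3WT replicates 2 and 3 and 12 and 7 without Gb1WT replicates 1 and 3. Ghnp had 6 without any 1 of the 3 Gh3np libraries, and 28, 91 and 29 without Gh1np replicates 1, 2 and 3. GhWT had 2, 5 and 2 without Gh3WT replicates 1, 2 and 3, and 5 and 2 without Gh1WT replicates 2 and 3.

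The TMM factors were 0.779 to 0.934 in the 12 seedling libraries, 1.045 to 1.110 at pre-squaring and 1.003 to 1.100 at squaring. On RPKM the stable genes differed between stages by a median of 0.02 (pre-squaring minus seedling) and 0.03 (squaring minus seedling) on the log2 scale. On TMM-scaled RPKM the same medians were -0.29 and -0.25, and those of the other genes at 30 RPKM were -0.20 and -0.11. Of the 153 genes, 151 were lower at pre-squaring than in seedlings on TMM-scaled RPKM, against 64 on RPKM. Of the 2957 other genes at 30 RPKM, 1911 were lower on TMM-scaled RPKM and 1280 on RPKM. Nulliplex minus normal branch had medians of -0.01 on RPKM and -0.04 on TMM-scaled RPKM, and G. barbadense minus G. hirsutum 0.00 and -0.01. Nulliplex means were higher in 64 and lower in 89 stable genes on RPKM, and higher in 29 and lower in 124 on TMM-scaled RPKM. In the other genes at 30 RPKM they were higher in 1484 and lower in 1473 on RPKM. On TMM-scaled RPKM they were higher in 1134 and lower in 1823 of these other genes. G. barbadense means were higher in 78 and lower in 75 stable genes on RPKM, and higher in 73 and lower in 80 on TMM-scaled RPKM. In the other genes they were higher in 1388 on RPKM and 1333 on TMM-scaled RPKM, and lower in 1569 and 1624. Between the later stages and seedlings, the scaling thus turned the direction of the medians, as division by these factors does to genes chosen level on RPKM. The share of reads in the 10 most abundant genes and the level of CA1 were higher in seedling than in later libraries, opposite to the TMM factor. Their part in the shift was not tested.

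**Figure D4:**
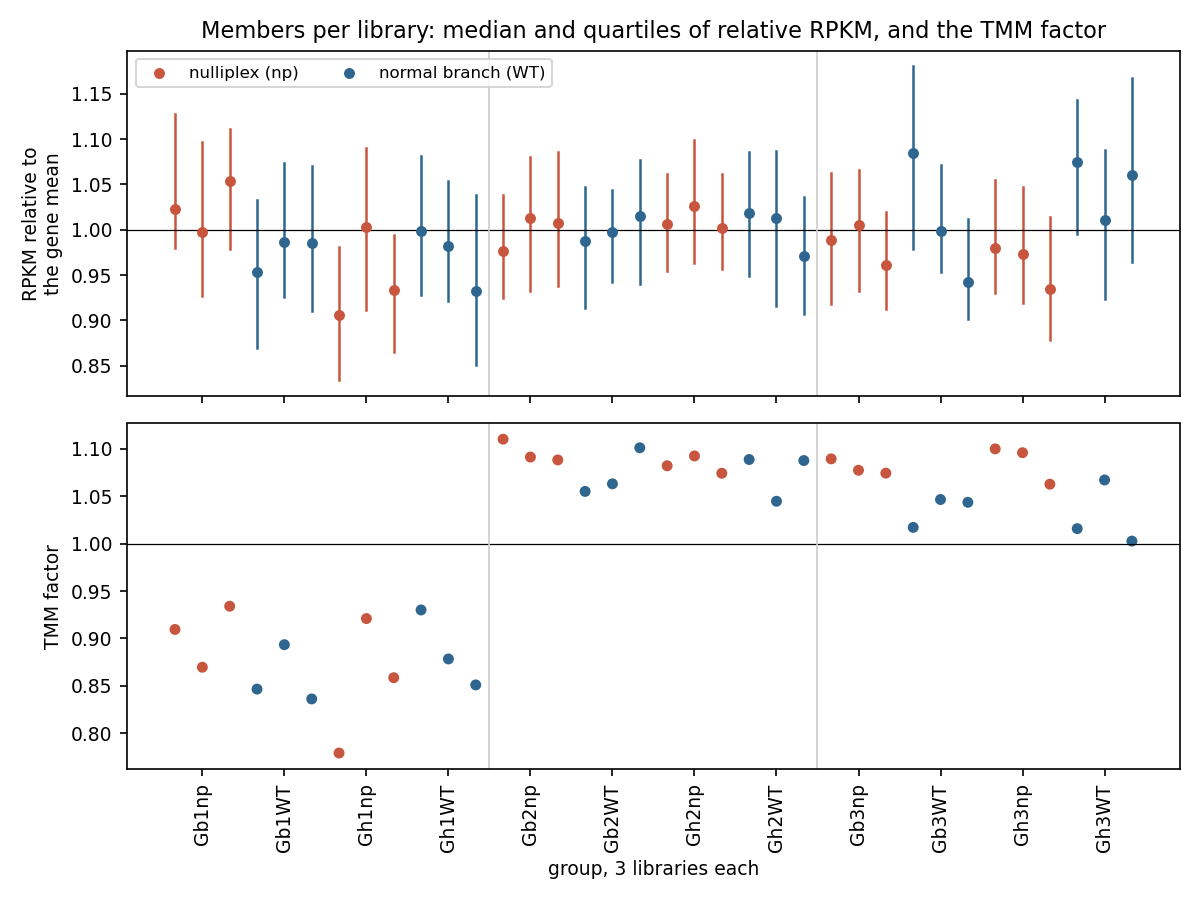
Upper panel, RPKM relative to each gene's mean over the libraries for the 153 stable genes, with points for the median and lines for the quartiles in each of the 36 libraries. Lower panel, the TMM factor of the same libraries. The medians stay between 0.906 and 1.085, while the TMM factor is 1.003 to 1.110 at the later stages and 0.779 to 0.934 in seedlings.

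Under TMM scaling the rule chose 184 genes, and 47 of the 153 (30.7%) were among them, or 25.5% of the 184. DESeq2 size factors gave 181 genes, with 43 shared (28.1% of the 153 and 23.8% of the 181). Of the 106 genes lost under TMM scaling, 105 exceeded the ratio limit and 14 missed the level. The highest means lay mostly in seedlings under TMM scaling: 135 of the 153 genes peaked in a seedling group on TMM-scaled RPKM and none had its lowest mean there, against 41 and 65 on RPKM. Genes chosen level on RPKM become highest in seedlings when divided by factors that are lower there. These counts thus restate the choice and the scaling, and they were not computed for the other genes at 30 RPKM.

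CotAD_07220 (1308 bases) had the lowest ratio of any gene at 30 RPKM on the TMM scale, 1.123, against 1.379 on RPKM. In seedlings it had 40.3, 38.6 and 40.3 RPKM in Gb1np, 36.5, 39.4 and 41.5 RPKM in Gb1WT, 38.5, 39.9 and 35.7 RPKM in Gh1np and 46.7, 43.6 and 38.1 RPKM in Gh1WT. At pre-squaring it had 52.2, 54.3 and 50.8 RPKM in Gb2np, 48.7, 48.2 and 49.5 RPKM in Gb2WT, 45.5, 54.1 and 49.2 RPKM in Gh2np and 48.7, 48.7 and 41.9 RPKM in Gh2WT. At squaring it had 50.01, 50.2 and 43.9 RPKM in Gb3np, 49.5, 44.8 and 46.6 RPKM in Gb3WT, 44.3, 50.5 and 45.1 RPKM in Gh3np and 50.6, 43.1 and 42.5 RPKM in Gh3WT. On RPKM the squaring libraries lay above the seedling libraries of the same line without overlap except in GhWT. On the TMM scale all 36 libraries lay between 38.6 and 50.2 RPKM, and the fitted log2 fold change of CotAD_07220 for squaring against seedling was -0.01 ± 0.09 (SE) in Gbnp and -0.06 ± 0.13 in Ghnp. CotAD_16053, with the lowest ratio of group means on RPKM, had -0.19 ± 0.10 in Gbnp and -0.28 ± 0.14 in Ghnp, and its ratio was 1.348 on the TMM scale. CotAD_07220 was picked as level on the TMM scale and CotAD_16053 as level on RPKM. The small fitted changes of CotAD_07220 were thus set by its pick, and nothing is read from this comparison. CotAD_60000 (1.180 on the TMM scale, 1.315 on RPKM), CotAD_47268 (1.192 and 1.328) and CotAD_21034 (1.193 and 1.391) followed CotAD_07220. CotAD_10074, with 1.192 on the TMM scale and 1.415 on RPKM, was the only gene of the first 5 outside the 153.

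**Figure D5:**
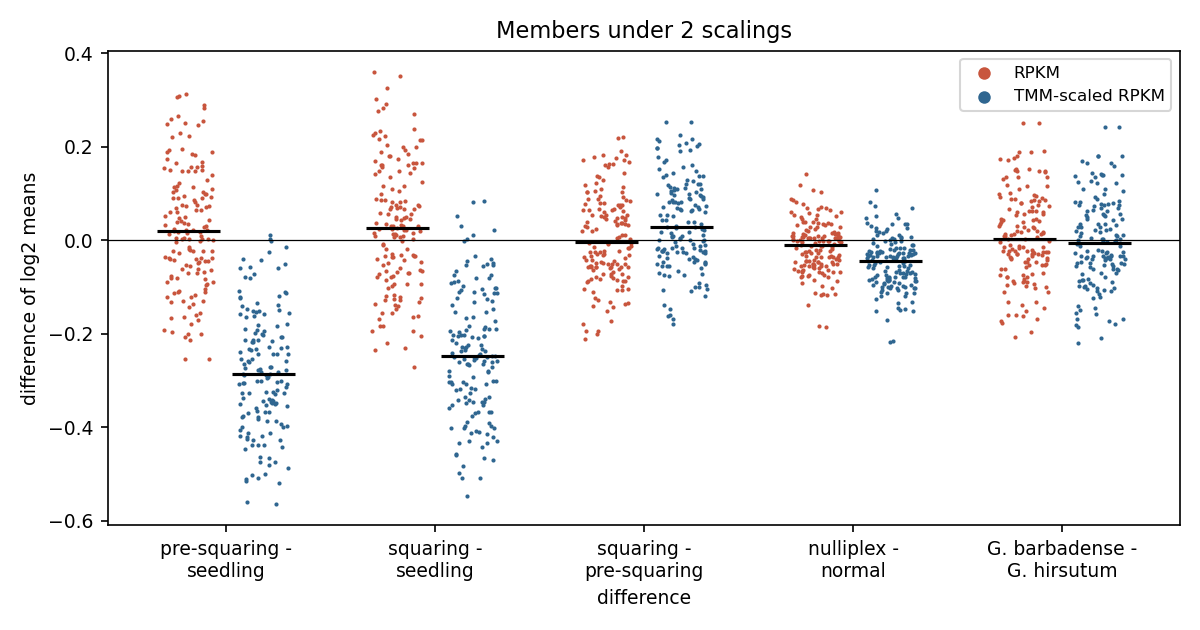
Difference of log2 means of the 153 stable genes (points, spread sideways at random) for 5 contrasts, on the deposited RPKM and on RPKM divided by the TMM factor, with black lines for medians. Pre-squaring minus seedling has medians of 0.02 on RPKM and -0.29 on TMM-scaled RPKM, nulliplex minus normal branch has 64 genes above 0 on RPKM and 29 on TMM-scaled RPKM, and the species contrast has 78 and 73. Among the 2957 other genes at 30 RPKM, which are not drawn, nulliplex minus normal branch was above 0 in 1484 on RPKM and 1134 on TMM-scaled RPKM. The species contrast was above 0 in 1388 and 1333 of them.

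A stricter form of the rule, with every one of the 36 libraries at 30 RPKM or more and the highest at most 1.4 times the lowest, left 11 genes. These were CotAD_16053, CotAD_67834, CotAD_74347, CotAD_00335, CotAD_51044 and CotAD_05579, with CotAD_05889, CotAD_14779, CotAD_31428, CotAD_53919 and CotAD_55602, the last 5 named after their values were seen. They ranged in level from 34.6 RPKM (CotAD_74347) to 207 RPKM (CotAD_51044), and 6 of the 11 also met the rule on TMM-scaled RPKM. Over both scalings and each of the 36 omissions of 1 library, 22 of the 153 genes met the rule every time. CotAD_62064 and CotAD_49842, the first and the fourth in level, met it on the TMM scale and in all 36 omissions, with ratios of 1.243 and 1.274 on that scale.

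The study tabulated 146 genes from its comparisons of nulliplex with normal branch (genes that differed at pre-squaring, and targets of miRNAs). None was among the 153. The study called such genes between groups used here, at a fold change limit above the ratio limit of 1.4. Their absence was thus largely set by both rules, and nothing is read from it. Of the 146, 4 reached 30 RPKM in every group, against 3110 of all 64274 genes listed. These 4, CotAD_22031, CotAD_07688, CotAD_35213 and CotAD_38978, had ratios of the highest to the lowest group mean of 3.481, 16.9, 15.2 and 13.9.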

How the data were processed

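RNA of shoot apexes was sequenced on an Illumina HiSeq instrument in 36 libraries of 12 groups. The authors removed low-quality and adaptor reads, used SOAP2 to align both species to the G. hirsutum genome (at most 5 mismatches), and deposited read counts per gene. How reads fitting several models were treated is not given in the sources used here, so near-identical copies are uncertain. The RPKM values were also deposited by the authors and were recomputed from count, coding length and library total. The deposited coverage is used as the authors' signal of how much of a coding sequence has reads. A gene not listed in a library was set to 0. Columns of per-sample values left unused numbered 0, and small RNA libraries are not used here.

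Groups were compared with edgeR 4.0.16 (quasi-likelihood test, TMM, filterByExpr with a minimum count of 10; Benjamini-Hochberg adjustment across the genes tested, with the study's limits of 0.001 for the adjusted p and 1 for the log2 fold change in size) in R 4.3.3, fitted on the 2 groups compared. Scripts were tested on simulated data. Alternatives were DESeq2 1.42.0, limma 3.58.1 on log2(RPKM + 1) and log2(RPKM + 0.1), no filter, 1 fit of all 36 libraries, the replicate number as a block, and each library left out. For the rule, other limits, medians, single libraries, TMM and DESeq2 scaling were tried, and leaving out 1 replicate number in every group and edgeR with the library total in place of TMM were added after seeing the data. Summaries used Python 3.11.15, pandas 2.3.3 and numpy 2.4.6.

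Genes were named by extremes of level, ratio, replicate CV and length, by nearness to the limits and by rank on the TMM scale. The genes and lists were chosen with earlier results of these data known. Functional lists could not be applied to the unnamed identifiers. Depth was 23.9 M to 28.1 M reads a library (in units of 1000000). Nothing but the study's word says that libraries came from separate plants, so the spread between them may be partly technical.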

Additional observations from a re-analysis of the deposited data

Results flagged for a closer look

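In 60 of the 153 stable genes (39.2%), the 3 nulliplex libraries lay above the 3 normal-branch libraries without overlap in at least 1 species and stage, and below them without overlap in another, against 56.6% of the 3110 genes at 30 RPKM in every group. Whether the branch differences themselves differed was not tested, and the contrasts took part in the choice of the genes. On TMM-scaled RPKM it was 54 genes, 45 of them among the 60, and no share of all genes was computed on that scale. Among the genes named by rule, 10 showed this on RPKM, and 5 of these (CotAD_40253, CotAD_47268, CotAD_51044, CotAD_54548 and CotAD_62064) also on TMM-scaled RPKM. The values are nulliplex minus normal branch, as log2 of the ratio of group means.

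Within G. barbadense, the sign differed between stages in 4 of them. CotAD_01544 had 0.156 in Gb2 and -0.294 in Gb3, and CotAD_02810 had 0.252 in Gb1 and -0.341 in Gb3. CotAD_62064, the most abundant, had -0.22 in Gb2 (321 RPKM in Gb2np, 374 RPKM in Gb2WT) and 0.224 in Gb3 (372 RPKM in Gb3np, 319 RPKM in Gb3WT). CotAD_05579 had -0.186 in Gb2, 0.16 in Gb3 and -0.206 in Gh1.

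In the other 6 genes, the pairs without overlap lay in both species, and at different stages as well except for the seedling pairs of CotAD_69294. CotAD_21034 had 0.198 in Gb1 and -0.123 in Gh2, CotAD_40253 had 0.228 in Gb2 and -0.359 in Gh3, and CotAD_47268 had 0.212 in Gb3 and -0.148 in Gh2. CotAD_51044 had 0.169 in Gb2 and -0.186 in Gh1, where on TMM-scaled RPKM the libraries overlapped and those of Gh3 did not, and CotAD_54548 had -0.157 in Gb1 and 0.206 in Gh2. CotAD_69294, the longest, had 0.205 in Gb1, 0.124 in Gb2 and 0.178 in Gb3 but -0.207 in Gh1. All of these differences were under 0.36 on the log2 scale.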

How the results depend on the processing

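The number of stable genes followed the limits: 43 at a ratio of 1.3, 323 at 1.5, 263 at a level of 20 RPKM, 60 at 50 RPKM and 11 when single libraries had to meet both limits. It was 131 with group medians, 184 on TMM-scaled RPKM and 181 with DESeq2 size factors, and 134 to 160 with 1 library left out; leaving out 1 replicate number in every group, chosen after seeing the data, gave 110 to 157. With 1 library left out, 74 of the 153 genes were kept every time and 148 at least 30 times of 36. The median CV was 6.65 to 7.24% with 1 library left out and 7.25% on the TMM scale (10.7% in the other genes), and the median SD of log2(RPKM + 1) was 0.10 against 0.16. The count past the threshold of the study was 0 in all 208 alternatives of the 16 comparisons. Counts at an adjusted p under 0.05 moved by more than 1.5 times in 92 of 208 alternatives, and the cause was not tested. For squaring against seedling they ranged over 31 to 107 in Gbnp, 7 to 70 in GbWT, 4 to 96 in Ghnp and 2 to 49 in GhWT. With 1 library left out the ranges were 64 to 107, 7 to 39, 6 to 91 and 2 to 7. Same-numbered libraries did not deviate together throughout (correlations of -0.54 to 0.26, every pair over 0.1 in 0 of 16 comparisons). With the replicate number as a block, 0 genes passed the threshold, and 83 in Gbnp, 15 in GbWT, 17 in Ghnp and 2 in GhWT had an adjusted p under 0.05. The fewest reads of a stable gene in a library were 124, in CotAD_02810.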
